A study of Rattus norvegicus with 82 samples.

Results

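Genes whose symbol starts with Kcn encode the pore-forming and auxiliary subunits of potassium channels. They were taken from the platform annotation as every probe set (the group of short probes that reads 1 transcript) with such a symbol, and the probe set with the highest mean over the arrays stood for each gene. This gave 75 of the 14217 named genes, read by 126 probe sets, of which 44 genes had 1 and 31 had several. All 75 symbols were matched to the same symbol in the RefSeq gene table of assembly GRCr8.

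Potassium channels let potassium leave the cell, so they set the resting potential of neurons, end the action potential and limit repetitive firing. Pore-forming alpha subunits assemble around a shared pore, and auxiliary subunits change how many channels reach the membrane and how they open and close. Glucocorticoids, which the adrenal cortex releases with a daily rhythm, are known to act on the excitability of neurons in the hippocampus, amygdala and hypothalamus. By role, the 75 genes comprised 6 Kv1 genes, 1 Kv2 gene, 3 Kv3 genes, 3 Kv4 genes, 7 silent or modifier alpha subunits, 3 Kv7 genes, 8 genes of the ether-a-go-go family, 5 channels opened by calcium or sodium, 15 inward rectifiers, 11 leak channels with a paired pore domain and 13 auxiliary subunits.

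The series measured total RNA of rat brain on 82 arrays. Of these, 80 came from 7 regions, 3 treatments and 2 times of day: 10 each from frontal cortex and hippocampus and 12 from each of septum, amygdala, hypothalamus, locus coeruleus and dorsal raphe. A region had 4 arrays each of Sham, ADX and pADX, divided between AM and PM, but the frontal cortex had 3 of Sham and 3 of ADX, and the hippocampus had 2 of pADX, both labelled PM. The labels put the remaining 2 arrays, of frontal cortex, in no treatment group, and no comparison uses them. The labels write only ADX, which in this field usually means adrenalectomy (taking out the adrenals), and Sham, which usually means surgery that leaves them in place. The meaning of the p in pADX was not given in the sources used here, nor were the strain, sex or age of the rats or any hormone treatment. No label says that replicates are separate animals, so p-values measure only the spread between these samples, which may be technical. The time label of both hippocampal pADX arrays is doubtful, since every other region has pADX arrays of both times.

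Values are normalized intensities on the log2 scale, on which a difference of 1 is a 2-fold difference. Values were not let fall below 4, the floor, so a fold that involves arrays at 4 is given as "at least". Levels are compared between arrays for the same gene only, since probe sets of different genes differ in brightness. In all, 27.5% of the values of all probe sets lay at the floor. The source name in the labels disagreed with the title and description for several regions, and the regions were read from the latter. Of the markers measured for each region, those highest there were 4 of 5 for the frontal cortex, 2 of 5 for the septum, 4 of 5 for the hypothalamus, 3 of 4 for the hippocampus, 3 of 3 for the dorsal raphe, 3 of 4 for the locus coeruleus and 0 of 2 for the amygdala. The lists held 6, 5, 6, 5, 4, 5 and 5 genes in that order, and the rest were not measured. The septal list's Chat and Dlk1 were highest in the locus coeruleus and Zic2 in the hypothalamus, the amygdalar list's Cyp26b1 in the locus coeruleus and Prkcd in the septum, and the striatal genes Drd1 (8.69) and Adora2a (6.93) in the septum. Dbh, of noradrenaline synthesis, averaged 8.34 in the locus coeruleus and at most 4.20 elsewhere, and Oxt averaged 10.95 in the hypothalamus and 6.14 in the amygdala. Slc6a4, the serotonin transporter, averaged 10.66 in the dorsal raphe and also 9.61 in the locus coeruleus. The deposited scale differed with region: a common trimmed mean was shared by every septal, amygdalar and frontal cortical array, by 2 of 12 from the dorsal raphe, by 7 of 12 from the locus coeruleus and by 0 from the hippocampus or hypothalamus.

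Of the 75 genes, 35 were above the floor on all 80 arrays, 59 on at least 50% of them and 16 on fewer. Kcne1, Kcnj1, Kcnn4 and Kcnq1 were at the floor on every array. Kcnj1 and Kcnq1 are known mainly from kidney and from heart and epithelia, and Kcnn4 from blood cells. Regions differed for 63 of the 75 genes by limma's moderated F test (adjusted p under 0.05), a share that stands beside 65.3% of all probe sets. The 12 genes that did not pass were Kcne1, Kcne3, Kcnh8, Kcnj1, Kcnj10, Kcnj15, Kcnj2, Kcnk5, Kcnmb1, Kcnn4, Kcnq1 and Kcnv2, of which only Kcnj10 was above the floor on at least 50% of the arrays. The range from the lowest to the highest region mean was 1 log2 unit or more for 42 of 75 genes, against 15.8% of all probe sets. Among those above the floor on at least 50% of the arrays it was 42 of 59, against 21.1%. The median range was 1.17 over the 75 genes, each read by its brightest probe set, and 0.46 over all probe sets, dim ones included.

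The main pattern among regions set the telencephalon (frontal cortex, hippocampus, amygdala and septum; 44 arrays) against the brainstem (dorsal raphe and locus coeruleus; 24 arrays), with the hypothalamus (12 arrays) mostly on the brainstem's side. With a threshold of 1 log2 unit beside the adjusted p, 13 of 75 genes were lower in the brainstem than in the telencephalon, against 3.03% of all probe sets and 4.15% of those above the floor on at least 50% of the arrays. In the same contrast 3 genes were higher, against 2.06% and 2.69%. In the hypothalamus 16 were lower than in the telencephalon, against 2.69%, and 2 were higher, against 1.59%. These contrasts and their threshold were added after the regional values had been seen. In bulk tissue, fewer cells of a type and less RNA per cell cannot be told apart. The summed level of 6 oligodendrocyte genes had a median of 8564 in the frontal cortex, 9144 in the amygdala, 15575 in the septum and 15846 in the hippocampus. Its median was 15158 in the hypothalamus, 19163 in the dorsal raphe and 19479 in the locus coeruleus. The median summed level of 7 neuronal genes ran from 10481 in the hypothalamus to 15470 in the frontal cortex, with 14721 in the dorsal raphe and 14549 in the locus coeruleus. The 3' to 5' ratio of beta-actin, a sign of RNA quality, moved with the same contrast: its region medians were 4.23 in the dorsal raphe and 3.51 in the locus coeruleus and between 2.48 and 3.07 in the other 5 regions. The part of these cell types and of RNA quality in the regional differences was not tested. On the deposited scale 2 genes were higher and 15 lower in the brainstem (1.43% and 3.84% of all probe sets), and 1 higher and 20 lower in the hypothalamus (0.602% and 5.7%), where the median of all probe sets shifted by -0.22.

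**Figure D1:**
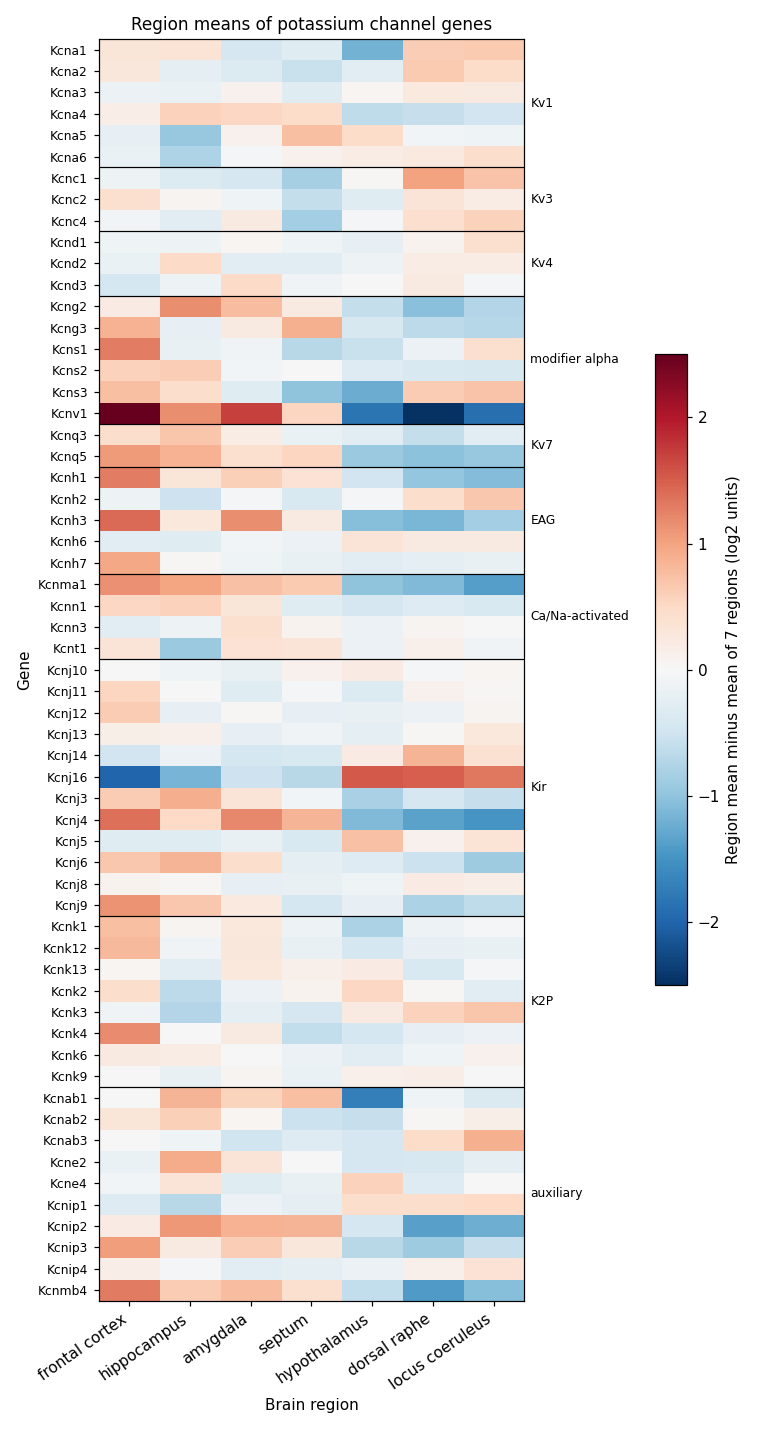
Region means of the 59 potassium channel genes above the floor on at least 50% of the arrays, as the difference in log2 units from the gene's mean over the 7 regions (colour, with the ends of the scale standing for larger differences), with genes grouped by role (rows) and regions in columns. Kcnv1, Kcnma1, Kcnmb4 and Kcnj4 are red in the telencephalic columns and blue in the hypothalamus, dorsal raphe and locus coeruleus, and Kcnj16 is the reverse.

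The sequences just upstream of the annotated starts are shown for Kcnma1 and Kcnmb4, genes of the large-conductance calcium-activated channel that were low in the brainstem, and for Kcnj16 and Kcnc1, which were high there. They are the 250 bases before each start, 5' to 3' on the gene's strand, from RefSeq on GRCr8. Capitals mark matches on either strand to the GC box GGGCGG or to the glucocorticoid receptor half-site AGAACA, and neighbouring matches can overlap. The windows are chr15:351675-351924 (plus strand) for Kcnma1, chr7:54005102-54005351 (minus strand) for Kcnmb4, chr10:96517074-96517323 (plus strand) for Kcnj16 and chr1:106038997-106039246 (plus strand) for Kcnc1.
Kcnma1: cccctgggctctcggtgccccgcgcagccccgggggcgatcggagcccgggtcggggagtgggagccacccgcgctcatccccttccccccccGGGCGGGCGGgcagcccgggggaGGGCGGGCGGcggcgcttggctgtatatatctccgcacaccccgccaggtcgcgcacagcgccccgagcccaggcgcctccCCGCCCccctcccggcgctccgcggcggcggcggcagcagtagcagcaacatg
Kcnmb4: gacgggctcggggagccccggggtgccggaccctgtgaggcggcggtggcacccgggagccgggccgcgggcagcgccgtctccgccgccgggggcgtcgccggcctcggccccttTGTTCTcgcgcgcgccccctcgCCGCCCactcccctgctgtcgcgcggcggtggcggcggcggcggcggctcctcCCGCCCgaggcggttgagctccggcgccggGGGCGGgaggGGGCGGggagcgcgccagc
Kcnj16: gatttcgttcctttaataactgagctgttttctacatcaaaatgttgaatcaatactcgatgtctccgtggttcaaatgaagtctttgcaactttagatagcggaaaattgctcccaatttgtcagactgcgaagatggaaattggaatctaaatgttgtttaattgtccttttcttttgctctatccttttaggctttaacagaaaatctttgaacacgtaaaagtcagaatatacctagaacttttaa
Kcnc1: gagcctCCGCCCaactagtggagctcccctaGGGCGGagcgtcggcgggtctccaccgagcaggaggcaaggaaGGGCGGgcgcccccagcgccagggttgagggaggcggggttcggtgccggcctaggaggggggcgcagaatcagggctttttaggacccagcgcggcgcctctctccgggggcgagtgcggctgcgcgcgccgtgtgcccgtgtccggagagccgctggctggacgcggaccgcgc
The windows of Kcnma1, Kcnmb4 and Kcnc1 hold 79.6%, 84.4% and 74.4% G or C and several GC boxes. That of Kcnj16 holds 33.6% and no match to any motif searched. Kcnmb4 has 1 half-site for the glucocorticoid receptor, 134 bases before the start. RefSeq windows were at hand for 52 of the 75 genes. A GC box was in 55.8% of these and in 32.4% of all 27457 windows, and the glucocorticoid receptor half-site in 11.5% and 17.1%. The E-box CACGTG was in 3.85% and 5.79%, the cyclic AMP response element TGACGTCA in 0% (0 of 52) and 1.7%, and the TATA box TATAAA in 3.85% and 13.1%, each searched on both strands. The median share of G or C was 63.4% over the 52 windows and 52% over all. A match is a description of these letters and shows no binding.

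Among the channels opened by calcium or sodium, Kcnma1, the pore of the large-conductance channel that ends calcium-rich spikes, ran from 7.71 to 8.74 on the 44 telencephalic arrays (median 8.36). On the 24 brainstem arrays it ran from 5.67 to 6.90 (median 6.25), and on the 12 hypothalamic arrays from 6.10 to 6.83 (median 6.48). No brainstem or hypothalamic array reached the lowest telencephalic one. The level was 4.35-fold lower in the brainstem (log2 difference -2.12, SE 0.05; limma adjusted p 5.42e-45) and 3.68-fold lower in the hypothalamus (adjusted p 1.59e-35). The other 2 detected probe sets of Kcnma1 were lower in the brainstem as well, with differences of -1.29 and -0.48. Its auxiliary subunit Kcnmb4, the neuronal beta subunit of the same channel, ran from 7.56 to 9.32 on the telencephalic, 5.68 to 7.07 on the brainstem and 6.98 to 7.30 on the hypothalamic arrays. Again the ranges did not overlap with the telencephalon, and the difference of brainstem from telencephalon was -2.01 (SE 0.06; adjusted p 4.97e-39). Of the other genes in this role, Kcnt1, a sodium-activated channel, was lower in the hippocampus (mean 5.55 ± 0.37 SD, n = 10) than in the other telencephalic regions (log2 difference -1.29; adjusted p 1.41e-21), while its other 2 detected probe sets gave -1.09 and 0.12. The small-conductance genes Kcnn1 and Kcnn3 did not pass the threshold of 1 log2 unit in any contrast.

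Among the modifier subunits, which form no channel alone but change the Kv2 channels they join, Kcnv1 had the widest range of all 75 genes. Its mean was 9.60 ± 0.22 (SD, n = 10) in the frontal cortex, 8.51 ± 0.18 (n = 12) in the amygdala, 7.96 ± 0.15 (n = 10) in the hippocampus and 7.34 ± 0.36 (n = 12) in the septum. It was 4.97 ± 0.42 in the hypothalamus, 4.93 ± 0.44 in the locus coeruleus and 4.33 ± 0.47 in the dorsal raphe (n = 12 each), where 5 arrays were at the floor. Array values ran from 6.67 to 9.90 in the telencephalon and from 4 to 5.78 in the brainstem, with no overlap. The brainstem level was at least 13.2-fold lower (adjusted p 1.8e-47). Kcnv1 was also the one gene of the 75 that was highest in a single region by 1 log2 unit, exceeding the amygdala by 1.09 in the frontal cortex, where 0.734% of all probe sets were highest in some region by that rule. Kcng2 differed from the telencephalon by -1.48 in the brainstem and by -1.195 in the hypothalamus, with hippocampal arrays from 6.38 to 8.09 and dorsal raphe arrays from 4.38 to 5.70. Kcng3 was at least 2.16-fold lower in the brainstem, where 11 of its 24 arrays were at the floor. Kcns3 followed another order: it averaged 7.53 in the frontal cortex, 7.43 in the dorsal raphe and 7.49 in the locus coeruleus, but 5.79 in the septum and 5.55 in the hypothalamus. Its hypothalamic level differed from the brainstem by -1.91 (adjusted p 7.13e-26) and from the telencephalon by -1.21. Kcns1 was higher in the frontal cortex (5.57 to 6.81 on 10 arrays) than in the other telencephalic regions, at least 3.09-fold, and averaged 5.22 ± 0.43 in the locus coeruleus.

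Among the Kv7 and ether-a-go-go genes, those that passed between brainstem and telencephalon were lower in the brainstem. Kcnq5, a subunit of the M-current that holds back repeated firing, ran from 8.38 to 9.73 in the telencephalon, 6.93 to 7.77 in the brainstem and 7.13 to 7.91 in the hypothalamus. The brainstem differed from the telencephalon by -1.70 and the hypothalamus by -1.64 (adjusted p 4.39e-44 and 1.24e-36). The other 2 detected probe sets of Kcnq5 differed little between brainstem and telencephalon, by -0.07 and -0.06, so this difference rests on 1 of 3 probe sets. Those 2 lay near the floor, with region means of at most 5.24 and 4.46, and can show a lower level less well. Kcnh1 ran from 6.73 to 8.66 in the telencephalon and from 5.14 to 5.98 in the brainstem, a 3.16-fold difference with no overlap. Kcnh3 was 3.41-fold lower in the brainstem, with averages of 8.25 in the frontal cortex and 7.99 in the amygdala against 5.68 in the dorsal raphe and 5.98 in the locus coeruleus. Kcnh7 was above the floor on all 10 arrays in the frontal cortex (4.92 to 5.64) and reached at most 5.04 elsewhere. Kcnh2, the gene of the cardiac delayed rectifier, differed from the telencephalon by +0.81 in the brainstem, short of 1 log2 unit. Of the 8 ether-a-go-go genes, 2 were lower and 0 higher in the brainstem under this rule, while limma's unadjusted p was under 0.05 for 51 of all 75 genes (68%) and 54.4% of all probe sets in this contrast.

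**Figure D2:**
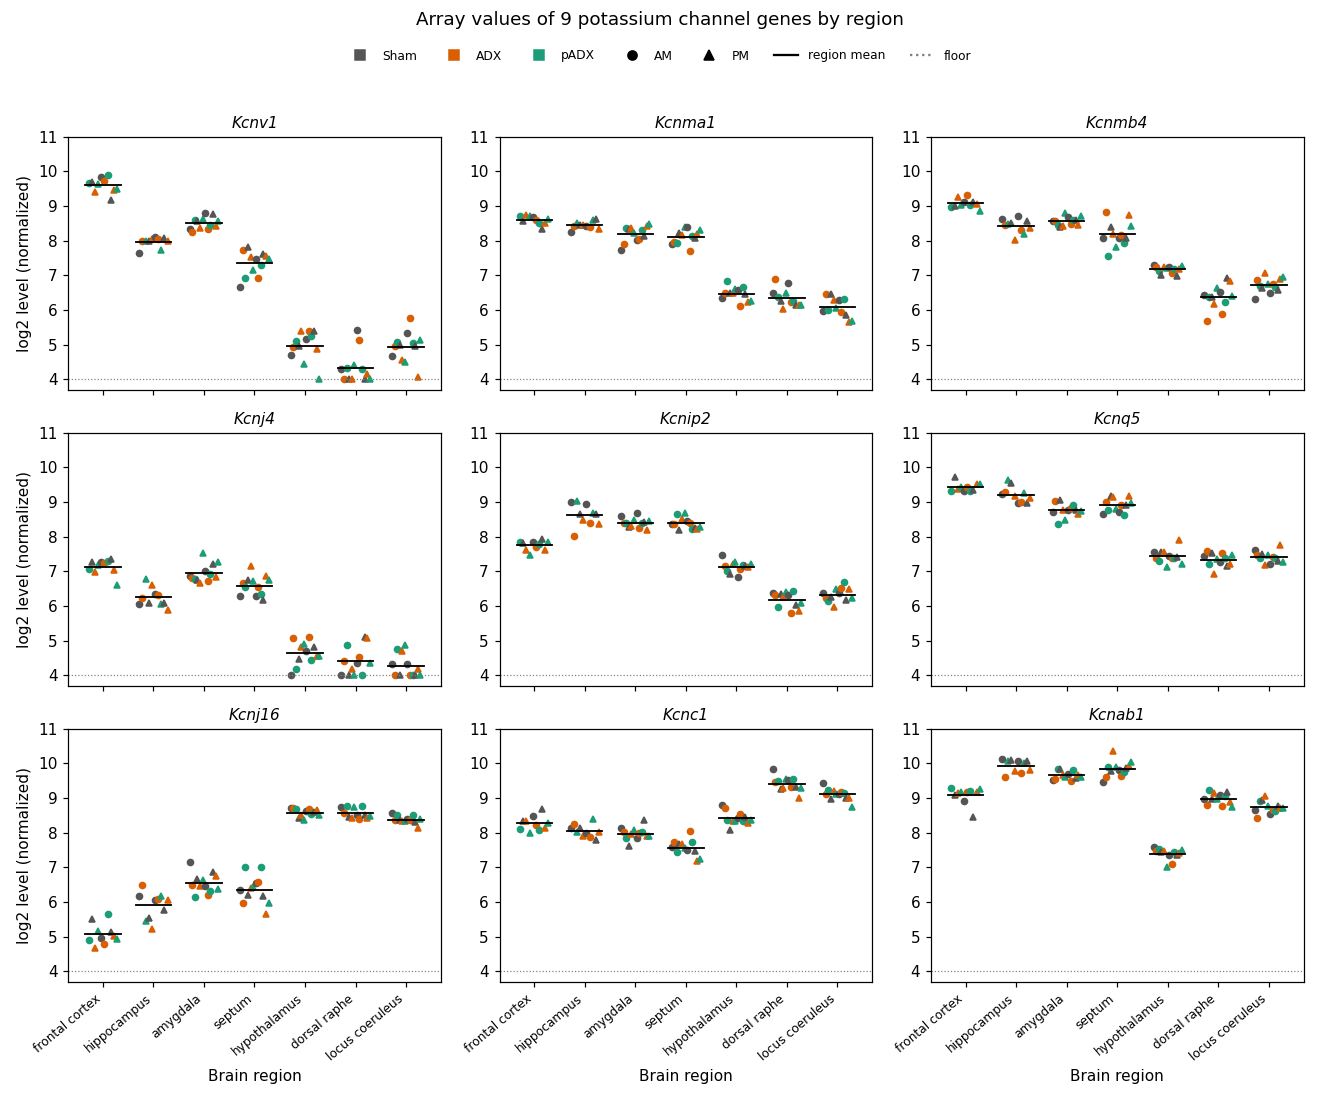
Normalized log2 level of 9 potassium channel genes on each of the 80 grouped arrays (points; colour, treatment; shape, time of day) by brain region, with the region mean as a line and the floor of 4 dotted. Kcnv1, Kcnma1, Kcnmb4, Kcnj4, Kcnip2 and Kcnq5 have no brainstem array as high as the lowest telencephalic one, Kcnj16 and Kcnc1 have every brainstem array above the telencephalic ones, and Kcnab1 is lowest in the hypothalamus.

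Among the inward rectifiers, Kcnj16 and Kcnj4 differed in opposite directions. Kcnj16 encodes a subunit that joins the glial channel Kir4.1 in astrocytes and in neurons that sense acid. It ran from 4.67 to 7.15 on the telencephalic arrays, 8.13 to 8.78 on the brainstem arrays and 8.35 to 8.72 on the hypothalamic arrays. Every brainstem and hypothalamic array lay above every telencephalic one. The brainstem level was 5.61-fold higher (log2 difference 2.49, SE 0.07; adjusted p 3.06e-42) and the hypothalamic one 6.06-fold higher (2.60, SE 0.09). A second detected probe set gave 2.28 for the brainstem. The 3 regions with high levels differed little, with means of 8.58, 8.56 and 8.38 in the hypothalamus, dorsal raphe and locus coeruleus. The frontal cortex was the lowest of all, at 5.07 ± 0.31 (SD, n = 10), with a difference of -1.18 from the other telencephalic regions. The summed level of 7 astrocyte genes was also lowest in the frontal cortex, with a median of 11990, and highest in the hypothalamus at 17632, with 15036 in the hippocampus and 15300 in the dorsal raphe, where Kcnj16 averaged 5.90 and 8.56. The part of astrocytes in the Kcnj16 level was not tested. The Kir4.1 gene itself, Kcnj10, was near the floor, with region means from 4.09 to 4.47.

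Kcnj4, a strong inward rectifier of forebrain neurons, was the reverse of Kcnj16. It ran from 5.89 to 7.53 in the telencephalon and from 4 to 5.12 in the brainstem, where 10 of 24 arrays were at the floor, so the brainstem level was at least 5.23-fold lower. A second probe set gave a difference of -2.16. Of the genes for the channels opened by G proteins, Kcnj6 and Kcnj9 were lower in the brainstem, with differences of -1.15 and -1.10, the latter a bound. Kcnj3 differed by -0.94 there, short of the threshold, and by -1.25 in the hypothalamus, which passed. The 3 detected probe sets of Kcnj3 ran from -0.94 to 0.14 in the brainstem, and the other 2 gave -1.2003 and -0.16 in the hypothalamus. Kcnj5 went the other way in the hypothalamus, with arrays from 5.09 to 5.89 against 4 to 4.92 in the telencephalon, at least 2.03-fold higher. On the deposited scale that difference was 0.64, and Kcnj5 lost the call. Kcnj6 averaged 8.48 ± 0.24 in the hippocampus and 6.76 ± 0.28 in the locus coeruleus. Of its 4 detected probe sets the lowest difference between brainstem and telencephalon was -1.15 and the highest -0.11. Kcnj11, the pore of the channel closed by ATP, had region means between 6.68 and 7.57.

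Of the Kv3 genes, Kcnc1, of fast-spiking neurons, ran from 8.73 to 9.85 on the brainstem arrays and from 7.18 to 8.69 on the telencephalic ones, without overlap. Its level was 2.43-fold higher in the brainstem (adjusted p 1.78e-35), with region means of 9.41 in the dorsal raphe and 9.10 in the locus coeruleus and the lowest, 7.57, in the septum. Kcnc4 and Kcnc2 differed by 0.73 and 0.30 in the same direction, both short of 1 log2 unit, and the 5 detected probe sets of Kcnc2 ran from -0.17 to 0.30. Of the 6 Kv1 genes, 0 passed the rule between brainstem and telencephalon, with a median difference of 0.46 against 0 over all probe sets. In the hypothalamus Kcna1 was lower than in the brainstem (difference -1.81) and than in the telencephalon (-1.14). Kcna1 averaged 6.73 ± 0.25 in the hypothalamus against 8.52 ± 0.23 in the dorsal raphe and 8.55 ± 0.23 in the locus coeruleus (n = 12 each). Kcna4, which carries a fast-inactivating current, averaged 6.23 in the hypothalamus, 6.31 in the dorsal raphe and 6.39 in the locus coeruleus and at least 7.04 in each telencephalic region; only the difference of the hypothalamus passed. Kcna5 was higher in the septum (5.58 to 6.54 on 12 arrays) than in the other telencephalic regions by 1.10 and lower in the hippocampus (-1.13), where 1 of 10 arrays was at the floor. Kcna2, the Kv1 gene with the highest mean signal, stayed between 9.52 in the septum and 10.72 in the dorsal raphe. Kcnb2, the only Kv2 gene measured, was above the floor on 22.5% of arrays, among them 8 of 10 in the frontal cortex.

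The Kv4 genes, which carry the dendritic A-type current, had small ranges, and 2 of their auxiliary subunits differed by more. Among the 42 genes above the floor on at least 90% of the arrays, Kcnd1 and Kcnd2 were in the 5 with the smallest ranges of region means, 0.61 and 0.76 log2 units, with Kcnip4 (0.64), Kcnk13 (0.64) and Kcnj11 (0.88). Kcnd2 ran only from 8.88 in the septum to 9.64 in the hippocampus, and Kcnd3 from 7.64 in the frontal cortex to 8.56 in the amygdala. Among the Kv4-interacting proteins, Kcnip2 was 4.11-fold lower in the brainstem, with arrays from 5.81 to 6.69 there, 6.84 to 7.46 in the hypothalamus and 7.47 to 9.04 in the telencephalon. Its 3 array ranges did not overlap, so every hypothalamic array lay between the others. Kcnip3 was 2.41-fold lower in the brainstem and averaged 8.62 in the frontal cortex against 6.70 in the dorsal raphe. Kcnip1 was higher by 0.82 in the brainstem, short of the threshold, and Kcnip4 differed by 0.34.

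Among the other auxiliary subunits, Kcnab1, a beta subunit that speeds the inactivation of Kv1 channels, was lowest in the hypothalamus by more than 1 log2 unit, as were 0.148% of all probe sets in some region. Its hypothalamic arrays ran from 7.01 to 7.58, and its means were 9.94 in the hippocampus, 9.83 in the septum, 9.65 in the amygdala, 9.08 in the frontal cortex, 8.98 in the dorsal raphe and 8.73 in the locus coeruleus. The gap between the hypothalamus and the next lowest region was 1.35 log2 units. A second detected probe set of Kcnab1 was also lowest in the hypothalamus, at 5.91. Its next lowest mean was 6.77, in the locus coeruleus, a gap short of 1 log2 unit, so the call rests on 1 of 2 probe sets. Between brainstem and telencephalon the 2 probe sets gave -0.77 and -0.48. Kcnab3 was highest in the brainstem, with means of 6.07 and 5.66 in the locus coeruleus and dorsal raphe. Kcnab2 averaged 9.07 ± 0.46 in the hippocampus and 7.90 ± 0.28 in the hypothalamus. Kcne2, known from the choroid plexus, was highest in the hippocampus (5.45 ± 0.77) and the amygdala (4.85 ± 0.62). The summed level of 5 choroid plexus genes ran from 1556 to 7841 on hippocampal and from 264 to 8156 on amygdalar arrays, against 88.3 to 288 in the frontal cortex. That sum ran from 129 to 6730 on septal and from 177 to 4131 on locus coeruleus arrays, where Kcne2 averaged 4.51 and 4.28. It ran from 115 to 772 in the hypothalamus and from 176 to 269 in the dorsal raphe. Kcne2 averaged 4.11 and 4.13 there, and 4.35 in the frontal cortex. The part of choroid plexus in the Kcne2 level was not tested.

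Of the 11 leak channels, 1 was higher and 0 lower in the brainstem than in the telencephalon. Kcnk3, an acid-sensitive leak channel, was higher there by 1.003 (SE 0.07; adjusted p 1.62e-19), with means of 6.06 in the locus coeruleus and 5.95 in the dorsal raphe against 4.63 to 5.28 in the telencephalic regions. This lies at the threshold: it fell below it without Sham AM replicate 1 (0.997), Sham PM replicate 1 (0.965), Sham PM replicate 2 (0.996), ADX PM replicate 2 (0.966) or pADX PM replicate 1 (0.965), and on the deposited scale and with a floor of 32 (0.85 in each). A second detected probe set of Kcnk3 gave -0.15. Kcnk4, a mechanosensitive leak channel, was higher in the frontal cortex than in the other telencephalic regions by 1.32 (6.36 to 7.13 on 10 arrays). Kcnk1 was lower in the hypothalamus (5.73 to 6.59) than on any telencephalic array (6.63 to 8.21). Kcnk2, the leak gene with the highest mean signal, had means from 6.85 in the hippocampus to 8.01 in the hypothalamus.

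Counted over all roles, every brainstem array lay below every telencephalic array for 7 genes (Kcnh1, Kcnip2, Kcnj4, Kcnma1, Kcnmb4, Kcnq5 and Kcnv1), against 1.78% of all probe sets, and above for 2 (Kcnc1 and Kcnj16), against 1.41%. The hypothalamic arrays lay below all telencephalic ones for 13 genes, against 2.06%, and above for 2, against 1.58%. The 7 genes low in the brainstem were among these 13. The hypothalamus differed from the brainstem by 1 log2 unit for 4 genes, all lower in the hypothalamus (Kcna1, Kcnab1, Kcnab3 and Kcns3), against 0.519% of probe sets lower and 0.995% higher. Within the telencephalon, 5 genes were higher in the frontal cortex than in the other 3 regions (Kcnh7, Kcnk4, Kcns1, Kcns3 and Kcnv1), against 0.854%, and Kcnj16 was lower, against 0.763%. In the septum 1 was higher (Kcna5), against 0.747%, and 5 were lower (Kcnj9, Kcnk4, Kcns1, Kcns3 and Kcnv1), against 0.47%, and in the hippocampus 2 were lower (Kcna5 and Kcnt1), against 0.428%. By limma with the fold threshold, 0 of 75 differed between the locus coeruleus and dorsal raphe (0.158% of all probe sets), 23 of 75 (30.7%, against 18.8% of all) having an unadjusted p under 0.05 and 16 (21.3%, against 6.51%) passing the adjusted p alone. Likewise 0 of 75 set the amygdala apart from the other telencephalic regions (0.416%), with 33 (44%, against 32.9%) at an unadjusted p under 0.05. On the deposited scale the split of higher and lower genes was 10 and 1 in the frontal cortex (1.71% and 0.522% of all probe sets), 1 and 1 in the septum (1.91% and 0.18%), 1 and 0 in the amygdala (0.831% and 0.0483%) and 0 and 14 in the hippocampus (0.0644% and 10.2%). In the septum Kcnj9, Kcnk4, Kcns1 and Kcns3 then lost the call.

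**Figure D3:**
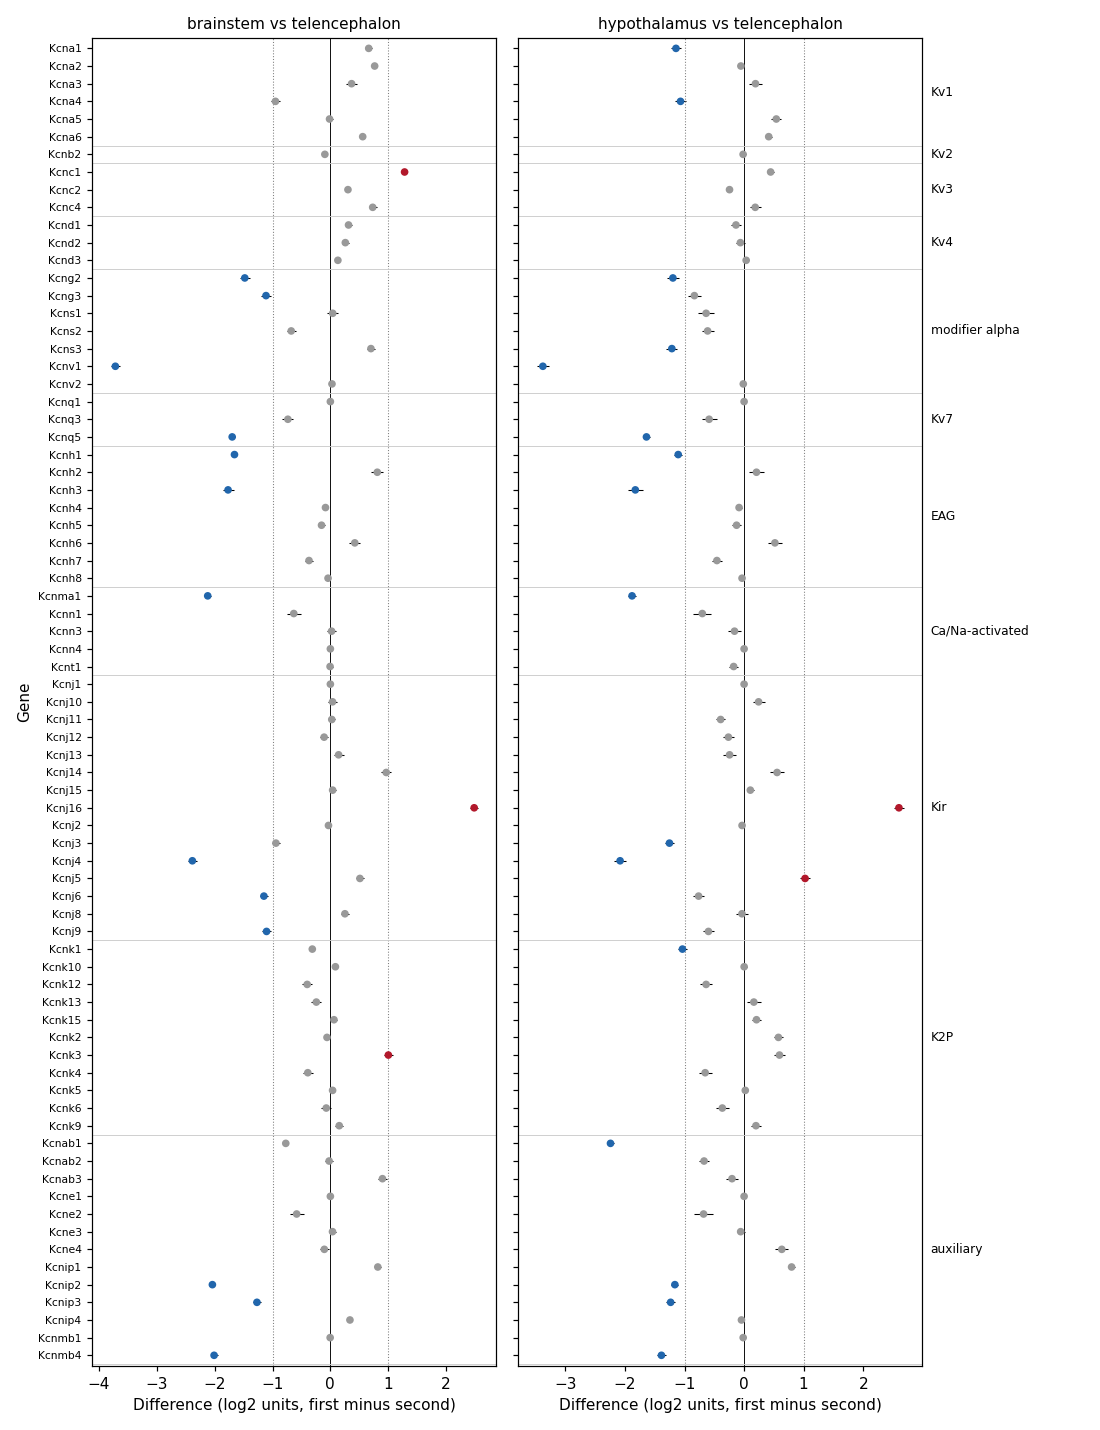
Difference of brainstem (left) and hypothalamus (right) from the telencephalon for all 75 potassium channel genes, in log2 units with standard errors, grouped by role; red and blue points passed an adjusted p of 0.05 and 1 log2 unit (dotted) as higher and lower. Kcnv1 at -3.72 and Kcnj16 at 2.49 are the extremes in the brainstem.

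For treatment and time of day, the values of the 5 regions with all 12 arrays (all but the frontal cortex and hippocampus) gave 12 unit means, each of 1 treatment, time of day and replicate number, so that a treatment had 4 units. By limma, 0 of the 75 genes passed an adjusted p of 0.05 for ADX vs Sham, against 0.132% of all probe sets. Unadjusted p was under 0.05 for 5 of 75 (6.67%), against 9.02% of all. For pADX vs Sham 0 passed, against 0.00644%, with 6 at an unadjusted p under 0.05 (8% against 7.7%). For ADX vs pADX 0 passed, against 0.0483%, with 10 at an unadjusted p under 0.05 (13.3% against 8.02%). The median change was 0 over the 75 genes and over all probe sets in all 3 comparisons, which share their groups. The data bound the mean change of well-detected genes over these 5 regions, but not their changes in a single region. Of the 42 genes above the floor on at least 90% of the arrays, 41 had a 95% confidence interval within 0.5 log2 units of no change in each of these comparisons.

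The genes with the lowest p for ADX vs Sham did not pass and are given as values. Kcnip4, a Kv4-interacting protein, was 9.004 and 9.02 in the Sham AM units, 9.11 and 9.07 in Sham PM, 9.12 and 9.16 in ADX AM and 9.22 and 9.13 in ADX PM. All 4 ADX units lay above all 4 Sham units, by a mean of 0.11 (SE 0.02; limma adjusted p 0.17). Kcnj6, a channel opened by G proteins, was 7.72 and 7.53 in Sham AM, 7.41 and 7.28 in Sham PM, 7.46 and 7.41 in ADX AM and 6.93 and 7.09 in ADX PM. Within each time of day both ADX units lay below both Sham units, a difference of -0.27 (SE 0.07; adjusted p 0.322). Kcnab2 lay between 7.94 and 8.26 in the 4 ADX units and between 8.28 and 8.49 in the 4 Sham units, without overlap (difference -0.25, SE 0.07; adjusted p 0.346). The other 2 well-detected probe sets of Kcnab2 gave 0.04 and -0.05, so the difference belongs to 1 of 3 probe sets. Kcnk1 and Kcnj16 differed by -0.15 and -0.13 (adjusted p 0.427 and 0.541), with ADX and Sham units overlapping.

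A fit over all 80 arrays with the combination as a random block called 4 of these 5 for ADX vs Sham, where 1.97% of all probe sets passed: Kcnab2 (-0.32, adjusted p 0.00957), Kcnj6 (-0.27, 0.0335), Kcnip4 (0.10, 0.0374) and Kcnk1 (-0.20, 0.0497). That fit treats arrays of different regions as nearly independent (block correlation 0.00742). On the deposited scale, without normalization between arrays, all probe sets shifted by a median of -0.21 for ADX vs Sham, 30 of the 75 genes (40%) and 44.2% of all probe sets passed, and Kcnip4 turned to -0.19. Blood genes moved with treatment as well: the summed level of Hbb and Alas2 ran from 406 to 2818 (median 892) on the 27 ADX arrays, from 1514 to 6976 (median 3050) on the 27 Sham arrays and from 841 to 5901 (median 2109) on the 26 pADX arrays. Alas2 fell by 1.62 on the log2 scale in ADX against Sham (limma adjusted p 0.0304). The common trimmed mean also moved with treatment in the locus coeruleus, which had it on every Sham array (4), on 3 from pADX and on 0 from ADX; the dorsal raphe had it on 2 Sham arrays alone. The part of blood and of the scale in the values of the potassium channel genes was not tested.

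**Figure D4:**
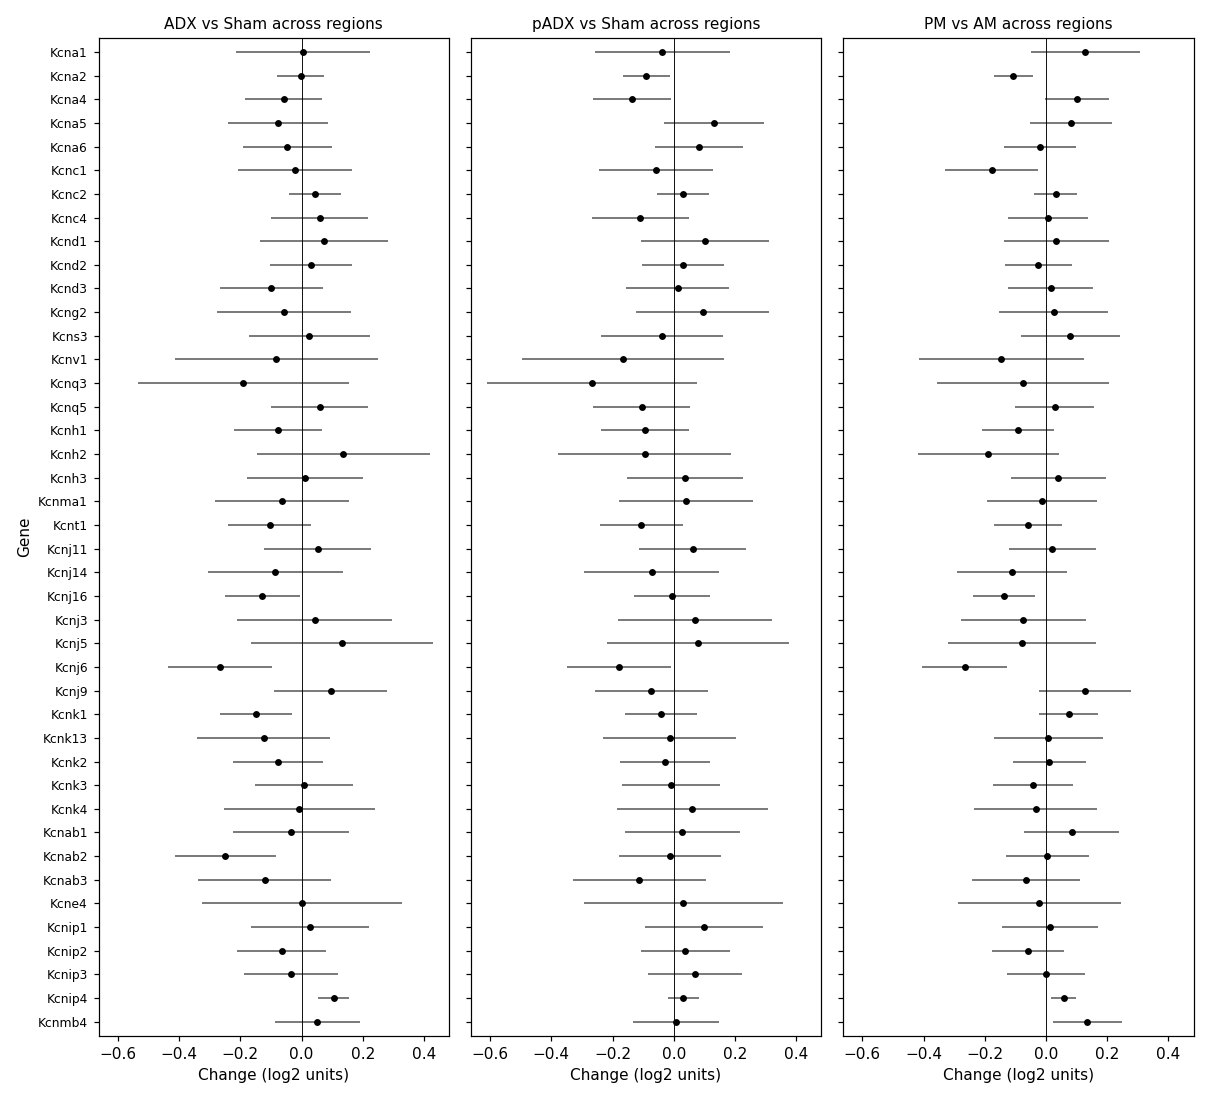
Changes of the 42 potassium channel genes above the floor on at least 90% of arrays for ADX vs Sham, pADX vs Sham and PM vs AM, in log2 units over the 12 units (points) with 95% confidence intervals (lines). None passed the adjusted test, and 41, 41 and 42 intervals lie within 0.5 log2 units of 0.

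For pADX vs Sham the lowest adjusted p was 0.398, for Kcnk6, a leak channel near the floor. Its Sham units ran from 4.12 to 4.28 and its pADX units were 4.19, 4.57, 4.55 and 4.71, a difference of 0.32. Kcnk12 (0.17), Kcna2 (-0.09), Kcna4 (-0.14) and Kcnj6 (-0.18) came next, with adjusted p from 0.591 to 0.632. A second detected probe set of Kcna2, near the floor, gave 0.16. For ADX vs pADX the 5 lowest p-values belonged to Kcnk12 (-0.21), Kcnip4 (0.07), Kcnab2 (-0.24), Kcna5 (-0.21) and Kcnk6 (-0.22), with adjusted p from 0.414 to 0.504. Kcnab2 was between 8.30 and 8.43 in the 4 pADX units, as in Sham and above the ADX units.

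For PM vs AM 0 of 75 genes passed, against 0.00966% of all probe sets, with 8 at an unadjusted p under 0.05 (10.7% against 10.4%). All 42 well-detected genes had intervals within 0.5 log2 units. Kcnj6 had the lowest p, at -0.27 (SE 0.06; adjusted p 0.198). Its AM values were given above for Sham and ADX; in pADX they were 7.38 and 7.33 in AM and 7.25 and 7.26 in PM, so both PM units lay below both AM units in each treatment. Its other 3 detected probe sets gave 0.12, -0.09 and -0.03. Their region means were at most 5.61, against 6.76 to 8.48 for the probe set used, so they lay nearer the floor and can show a fall less well. Kcna2, a Kv1 channel of axons, differed by -0.11 (adjusted p 0.253), Kcnip4 by 0.06, Kcnk12 by 0.16 and Kcnj16 by -0.14 (adjusted p 0.326 to 0.339). A second detected probe set of Kcna2, with region means of at most 4.92, gave 0.11.

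Within a treatment the tests rested on 2 units a side. Within Sham 0 passed, against 0.0773% of all probe sets, with 4 at an unadjusted p under 0.05 (5.33% against 9.3%). Kcna4 was 6.73 and 6.65 in Sham AM and 6.94 and 6.87 in Sham PM (0.22, adjusted p 0.306), and Kcnj6, Kcnt1 and Kcnj5 differed by -0.28, -0.21 and -0.41. Kcnip4 came next at 0.08 (adjusted p 0.549). Within ADX 0 passed, against 0.029%, with 6 at an unadjusted p under 0.05 (8% against 10.5% of all). Kcnj6 differed there by -0.42 (adjusted p 0.228), Kcnab1 by 0.28, Kcnk1 by 0.19, Kcnk15 by -0.16 and Kcna4 by 0.13. Within pADX 0 passed, against 0.00966%, with 5 at an unadjusted p under 0.05 (6.67% against 6.29%), led by Kcnh5 (-0.17), Kcnj16 (-0.21), Kcnmb4 (0.22), Kcnj9 (0.26) and Kcnip3 (0.17), all with adjusted p of at least 0.709. The test of whether the time-of-day change differed between ADX and Sham passed for 0, against 0.0354%, with 3 at an unadjusted p under 0.05 (4% against 6.76%). The lowest p-values were those of Kcnk15 (-0.29), Kcnt1 (0.23), Kcnj5 (0.49), Kcnk1 (0.20) and Kcnk9 (0.38). Kcnj5 was 5.06 and 5.07 in Sham AM and 4.55 and 4.76 in Sham PM, and 4.88 and 5.03 in ADX AM and 5.08 and 4.98 in ADX PM.

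**Figure D5:**
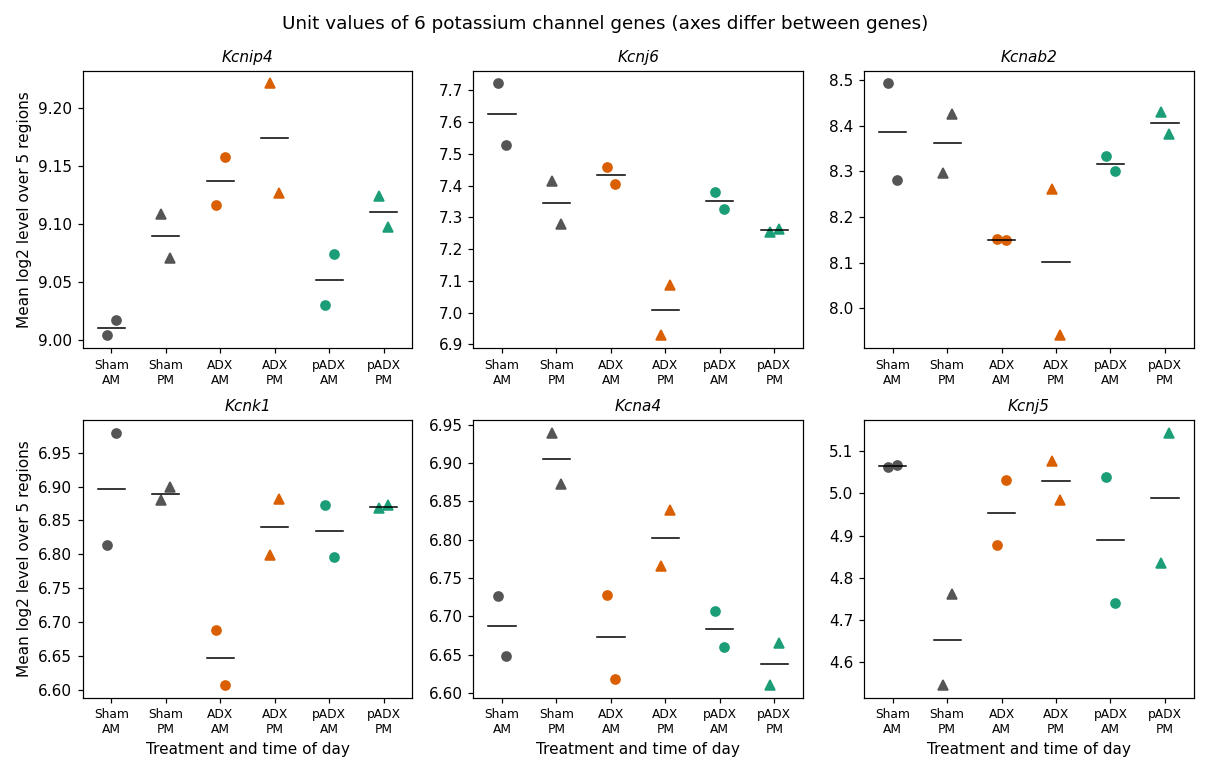
Mean log2 level over 5 regions of 6 potassium channel genes in each of the 12 units (points; colour, treatment; shape, time of day), with the mean of each treatment and time as a line; axes differ between genes and do not start at 0. Kcnip4 is higher and Kcnab2 lower in all 4 ADX than in all 4 Sham units, and Kcnj6 is lower in PM than in AM within each treatment, none past the adjusted test; on the deposited scale Kcnip4 turns to -0.19.

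In single regions, 0 of the 525 pairs of gene and region passed in limma for ADX vs Sham (0.011% of all probe sets), with 44 at an unadjusted p under 0.05 (8.38% against 8.1%). For pADX vs Sham 0 passed (0.00322%), with 31 at an unadjusted p under 0.05 (5.9% against 6.26%), and for PM vs AM 0 passed (0.00184%), with 34 (6.48% against 6.81%). The lowest adjusted p for ADX vs Sham was that of Kcnab1 in the hippocampus, 0.107. There Kcnab1 was 10.14, 10.06, 10.10 and 10.08 on the Sham arrays, 9.60, 9.72, 9.77 and 9.80 on the ADX arrays and 10.07 and 10.02 on the pADX arrays. All ADX arrays lay below all others, by 0.37 (SE 0.04) against Sham, while in the other 6 regions its change ran from -0.15 in the dorsal raphe to 0.35 in the frontal cortex.

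Whether the changes differed between the 5 regions was tested by interaction in limma, and 0 of 75 passed for ADX vs Sham (0.229% of all probe sets) and 0 for PM vs AM (0.00644%). Unadjusted p was under 0.05 for 8 of 75 in each test, against 10.1% of all probe sets in each. Kcnh3 had the lowest p for ADX, with an adjusted p of 0.107. It was 6.27, 6.18, 6.12 and 5.90 on the Sham and 5.32, 4.93, 5.65 and 5.27 on the ADX arrays of the dorsal raphe, a difference of -0.82 without overlap. In the septum and locus coeruleus it differed by 0.56 and 0.46. Kcna4 had the lowest p for time of day, with an adjusted p of 0.127. In the septum its AM arrays were 6.87 and 7.07 in Sham, 7.12 and 6.96 in ADX and 7.07 and 6.83 in pADX. Its PM arrays were 7.68 and 7.89 in Sham, 7.82 and 7.84 in ADX and 7.07 and 7.76 in pADX. Thus 5 of 6 PM arrays lay above every AM array, and replicate 1 of pADX PM lay among the AM arrays. The difference was 0.69 (SE 0.12, limma adjusted p 0.256). Without that replicate it was 0.81. That array stands out by its own Kcna4 value, so leaving it out is no separate test of the change. In the other 4 complete regions the time-of-day difference of Kcna4 ran from -0.27 in the dorsal raphe to 0.20 in the amygdala.

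Of 24 further genes for channel partners and potassium transport, 19 were measured. Between brainstem and telencephalon 2 were higher, against 2.06% of all probe sets. These were Slc12a2 (1.19), a chloride importer that also carries potassium, and Atp1b2 (1.13), the glial beta subunit of the sodium pump. Nedd4l (-1.65), a ubiquitin ligase that acts on channels, and Lgi1 (-1.10), a secreted partner of Kv1 channels, were lower, against 3.03%. The other 15 did not pass. For treatment and time of day 0 of the 19 passed in limma, against at most 0.132% of all probe sets. Unadjusted p was under 0.05 for 3 in ADX vs Sham (9.02% of all probe sets) and 2 in pADX vs Sham (7.7%). It was under 0.05 for 1 in each other comparison (6.29% to 10.5%). Hcn2, which carries the pacemaker current, differed by 0.33 for ADX vs Sham (adjusted p 0.0909) and by 0.36 for pADX vs Sham (adjusted p 0.258). Sgk1, a kinase known to respond to glucocorticoids, differed by 1.11 between PM and AM within Sham (adjusted p 0.218).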

How the data were processed

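Per the labels, total RNA of rat brain regions was hybridised to 1-colour arrays. The files hold 1 linear intensity per probe set and array, as deposited by the authors; the software and scaling behind it were not given in the sources used here. Intensities were quantile normalized over 82 arrays, set to at least 16 and put on the log2 scale (limma 3.58.1, R 4.3.3). After removal of 57 control probe sets, 31042 were tested without a filter, with Benjamini-Hochberg adjustment over all of them and a threshold of 0.05, by lmFit and eBayes with an intensity trend. Regions were compared over 80 arrays, with the 12 combinations of treatment, time and replicate as a fixed block. Treatment and time were fitted additively over 12 unit means, and with 6 group means for effects within a treatment. Single regions and their interactions were fitted on arrays. The fits were tested on simulated data. Deviations of same-numbered units correlated between -0.07 and 0.06 over 15 pairs of treatment and time groups, so no pairing between these groups was seen. These values cannot show whether same-numbered arrays of different regions came from the same animals.

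Named genes were those called highest or lowest in a region, the 5 flattest of those above the floor on at least 90% of arrays, the highest-mean gene of each role and, where no treatment or time test passed, the 5 with the lowest p. The genes of the region contrasts were named after their values were seen. The members and lists were chosen with earlier results of these data known. The deposited scale was added for the region contrasts after seeing the data. Alternatives covered the scale, the floor, dim probe sets, the probe set used, the block, the regions used and leaving out each unit. The number of arrays limits the precision.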

Additional observations from a re-analysis of the deposited data

Results flagged for a closer look

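Within a treatment's 4 units, 1 value stood apart from the rest for 2 of the 19 genes examined, in 57 groups; chance sets apart about 1 group in 20. Kcnip3, a Kv4-interacting protein, was 7.49 in Sham AM replicate 2 and between 7.25 and 7.27 in the other 3 Sham units. Kcnk1, a leak channel, was 6.80 in pADX AM replicate 2 and 6.87 in each of the other 3 pADX units.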

How the results depend on the processing

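On the deposited scale, 30 of the 75 genes passed for ADX vs Sham across regions (44.2% of all probe sets), 8 for ADX vs pADX (11.5%), 31 pairs of gene and region for ADX vs Sham in single regions (5.9%, against 5.77% of all) and 17 genes for the ADX change by region (22.7%, against 27.1%); Kcnip4 turned to -0.19 for ADX vs Sham and to -0.10 for ADX vs pADX. On that scale 2 genes were highest and 5 lowest in 1 region. Shares of all probe sets were not computed for these 2 counts, and the scale itself shifts whole regions. The median of all probe sets differed by -0.22 between hypothalamus and telencephalon, so the counts cannot be read as particular to these genes. With a random block over all 80 arrays, 4 passed for ADX vs Sham. With only the septum, hypothalamus and amygdala, 1 passed for PM vs AM within ADX and 1 for ADX by time of day. This was Kcnk5 in both, above the floor on only 16.2% of arrays, and no share of all probe sets was computed. With only the frontal cortex, septum and amygdala, the counts of genes highest and lowest in 1 region changed as well. Their shares of all probe sets were again not computed. With any probe set of a gene, 1 passed for the ADX change by region (Kcnq5). The cause was not tested for any of these.

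Leaving out each unit in turn, counts ran from 0 to 1 for PM vs AM within ADX and ADX by time of day (Kcnh8 in both without ADX AM replicate 2, and Kcnk5 in the latter without ADX PM replicate 2). The count highest in 1 region ran from 1 to 2 (Kcns1 added without ADX AM replicate 2, Kcnk4 without pADX PM replicate 2). In single regions it ran from 0 to 1 for ADX vs Sham (Kcnh6 without Sham PM replicate 1, Kcnj15 without ADX AM replicate 2) and from 0 to 2 for pADX vs Sham (Kcnh6 and Kcnj8 without Sham PM replicate 1, Kcnh5 without pADX PM replicate 2). It ran from 0 to 1 for PM vs AM (Kcna4 without pADX PM replicate 1), for the ADX change by region (Kcnj15 without ADX AM replicate 2) and for the PM change by region (Kcna4 without pADX PM replicate 1). Of the genes added by leaving out a unit, Kcnh8, Kcnj15, Kcnk5 and Kcnh5 were above the floor on only 6.25%, 15%, 16.2% and 32.5% of arrays. Shares of all probe sets were not computed for these refits. Region differences ran from 61 to 64 genes and brainstem vs telencephalon from 15 to 17. With the replicate block, 0 genes passed in each treatment or time comparison across regions. Of 1076 values of single genes, 1054 kept direction and side of the threshold, 9 lost and 11 gained the call and 2 reversed.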

Other observations

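Of the 75 potassium channel genes, 58 and 69 lay within the range of the 10 grouped frontal cortex arrays on the 2 frontal cortex arrays that the labels put in no group.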
